A study of Mus musculus with 22 samples.

Results

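The lamina-associated domains (LADs) of untreated mouse embryonic fibroblasts (MEFs) were described chromosome by chromosome from the 3 WT lists of a DamID-seq series that holds 11 such lists from 22 libraries. Members were the intervals of each WT list on the 19 autosomes once neighbours separated by less than 25 kb had been merged and everything of 100 kb or less dropped. This gave 1849 LADs for embryo 1.5, 2187 for embryo 1.8 and 2016 for embryo x17, 6052 in all. The cells were primary MEFs of the C57bl/6 background, isolated at e13.5, kept for no more than 5 passages and given no drug and no knockdown, as the label "None" records. Each list came from 1 experiment library paired with 1 control library, and each pup name in the labels was taken as 1 embryo. The labels number the replicates 1 for embryos 1.5 and 1.8, and 2 for x17, and no treated list was used. The lists hold positions and no expression values, so the cell type rests on the labels and was not checked against markers.

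LADs are large stretches of chromatin that touch the nuclear lamina, the meshwork of lamins under the inner nuclear membrane. They are known to be poor in genes, late in replication and low in transcription, and the gene-rich stretches between them lie further inside the nucleus. In DamID a bacterial adenine methyltransferase, Dam, is fused to lamin B1 and marks the DNA it meets, while free Dam marks open chromatin and serves as the control. A LAD call of this kind records contact with the lamin relative to general accessibility, summed over the cells of a culture. The lists give no level and no read number, so depth is unknown and no interval could be weighted by it.

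LADs held more than 50% of the autosomes in every list at the limits used here. With a minimum length of 500 kb the mean was 47.1%. Coverage, the LAD bases as a percent of the chromosome span, was 57.0% in embryo 1.5, 62.4% in embryo 1.8 and 59.2% in embryo x17, a mean of 59.5% ± 2.72 (SD, n = 3 lists). The span, bounded on each chromosome by the outermost bases of all deposited WT intervals, came to 2415 Mb over the 19 autosomes. In bases, LADs took 1377 Mb, 1507 Mb and 1429 Mb. The list of embryo 1.8 was thus the widest in coverage, and it had the most LADs after joining and filtering. As deposited, embryo x17 had the most autosomal intervals, 8917 against 4485 in embryo 1.5 and 7306 in embryo 1.8. Embryo 1.8 held the highest coverage of the 3 lists on 19 of 19 autosomes, and embryo x17 exceeded embryo 1.5 on 18 of 19. The difference between lists was therefore shared by the chromosomes, and it is a difference between single cultures that no test was made on.

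Most LADs were short, and most LAD bases lay in long ones. The median LAD length was 393 kb, 357 kb and 337 kb in embryos 1.5, 1.8 and x17, a mean of 362 kb ± 28.3 (SD, n = 3). The N50, which is the LAD length taken as a median over bases rather than over LADs, was 1404 kb, 1243 kb and 1483 kb, or 1377 kb ± 122 (SD, n = 3). Number, median and N50 follow the limits set on joining and length: the deposited intervals gave a mean of 6903 with a median of 57.1 kb and an N50 of 831 kb, and a minimum of 500 kb gave 784 with a median of 1004 kb. LADs of 100 to 250 kb were 35.9% ± 3.32 of all LADs and held 8.39% ± 0.973 of LAD bases (SD, n = 3 lists). LADs of 2000 to 5000 kb were 7.27% ± 0.596 of LADs and held 30.2% ± 1.75 of LAD bases. At 1 Mb or more there were 389, 411 and 381 LADs per list, 19.6% ± 1.27 of LADs, and these held 59.9% ± 1.74 of LAD bases. The number of these long LADs varied less between lists than the number of short ones, since LADs of 100 to 250 kb counted 601 in embryo 1.5 against 791 in embryo 1.8 and 789 in embryo x17.

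**Figure D1:**
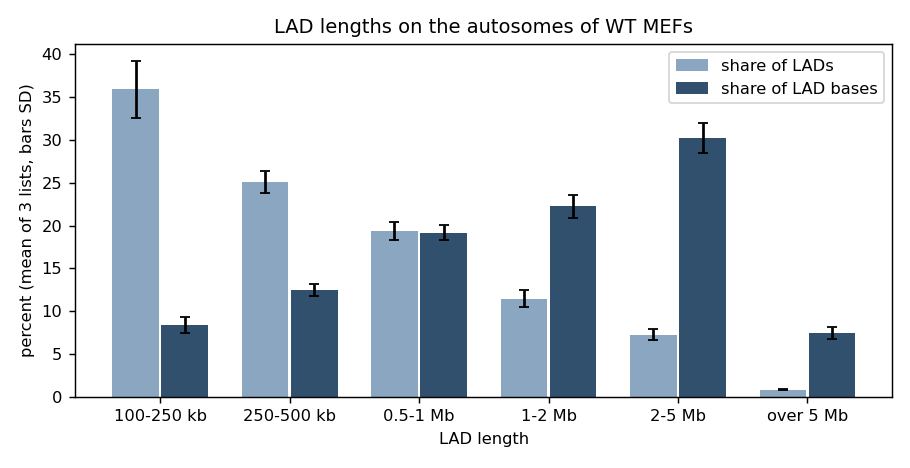
Share of LADs (light bars) and share of LAD bases (dark bars) in percent on the y axis, by LAD length on the x axis, as the mean of the 3 WT lists with the SD as error bars. LADs of 100 to 250 kb are the largest class by number (35.9%), whereas LADs of 2 to 5 Mb are the largest by bases (30.2%).

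The stretches between LADs were shorter than the LADs themselves by median, an order that turned with no length filter (87.4 kb for LADs against 92.5 kb between them). The inter-LAD distance, measured between neighbouring LADs of one chromosome, had a median of 223 kb in embryo 1.5, 177 kb in embryo 1.8 and 186 kb in embryo x17, 195 kb ± 24.5 (SD, n = 3). Its mean was 491 kb ± 73.1. As with LADs, a few long stretches held most of the bases: distances of 1000 kb or more were 13.3% ± 2.39 of the inter-LAD stretches and held 57.6% ± 5.82 of their bases. Stretches of 25 to 100 kb, the shortest that the joining step leaves, held 3.71% ± 0.876 of the bases and numbered 574, 818 and 719. The median distance also followed the limits on joining and length, and was 45.3 kb as deposited and 849 kb with a minimum LAD length of 500 kb.

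Chromosomes differed in coverage more than lists did. Coverage ran from 47.1% ± 3.34 on chromosome 11 to 65.6% ± 3.30 on chromosome 14 (SD, n = 3 lists), and the SD between the 19 chromosome means was 4.46 percentage points. Chromosome 14 had 62.7%, 69.2% and 64.8% of its span in LADs in embryos 1.5, 1.8 and x17. Chromosome 7 had 62.6%, 67.5% and 63.9%, a mean of 64.7% ± 2.53, and chromosome 12 had 61.2%, 66.8% and 65.1%, a mean of 64.4% ± 2.84. The order of these top 3 was not resolved, because the differences between neighbours lay within the spread over lists. At the other end, chromosome 15 had 51.5%, 58.0% and 55.3%, a mean of 55.0% ± 3.27. Chromosome 19, the shortest autosome, had 49.5%, 57.8% and 52.9%, a mean of 53.4% ± 4.17. Chromosome 11, known as one of the most gene-dense mouse chromosomes, had 44.1%, 50.7% and 46.5% and was the lowest autosome in each list.

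**Figure D2:**
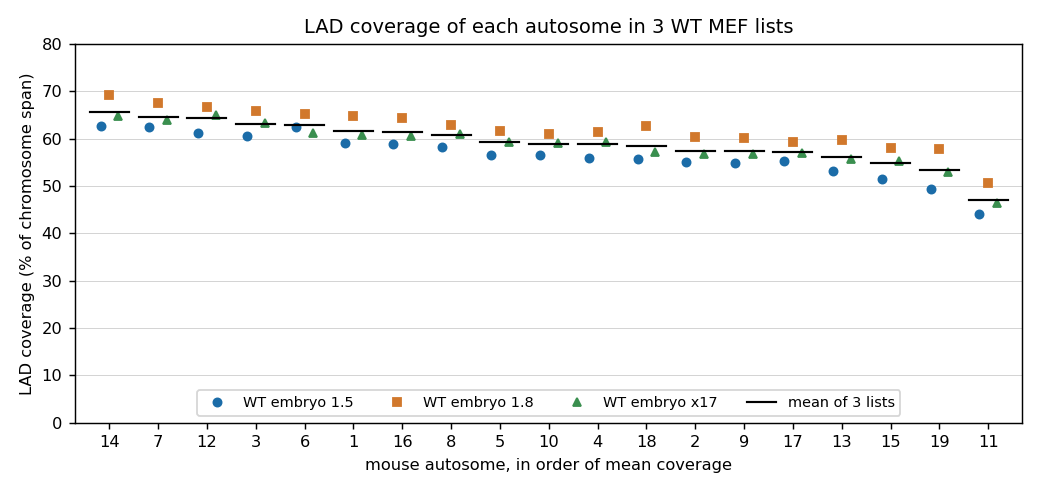
LAD coverage in percent of the chromosome span (y axis) for each autosome (x axis, in order of mean coverage), with 1 point for each of the 3 WT lists and a black line at their mean. Points of embryo 1.8 lie highest on every chromosome, and chromosome 11 (47.1%) stands apart from the gradual decline between chromosome 14 (65.6%) and chromosome 19 (53.4%).

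Taking off each list's own total left small differences between lists. Chromosome 11 lay below the total of its list by 12.9, 11.7 and 12.6 percentage points, a mean difference of -12.4 ± 0.633 (SD, n = 3). Chromosome 14 lay above its list by 6.06 ± 0.631 points. The median SD over lists fell from 2.76 points for coverage itself to 0.631 points for coverage relative to the list, so the order of chromosomes was shared more closely than the level. In all 3 lists 8 chromosomes lay above the list total and 7 lay below it. The Spearman correlation of coverage between pairs of lists was 0.967 to 0.974 over 19 chromosomes, given as a description, since all chromosomes of a list share its libraries.

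Pairs of chromosomes were compared within lists. A difference was taken as larger than the spread when its mean exceeded 2 SD of the 3 differences, which also gives it the same sign in all 3 lists. Some pairs can pass this rule with no true difference, and how many was not computed. A small count of passing pairs or neighbours is therefore only described. By this measure 131 of 171 pairs differed in coverage. Chromosome 11 was below each of the other 18 chromosomes. Of the 18 neighbours in the order, 2 differed beyond the spread: chromosome 8 lay above chromosome 5 by 1.71, 1.30 and 1.49 points and chromosome 19 above chromosome 11 by 6.27 ± 0.846 points. The remaining 16 neighbours did not differ beyond their spread, so most places next to each other in the order were not resolved. The chromosomes set apart from the fewest others were chromosome 6, from 9 of 18, and chromosomes 4, 17 and 18, from 11 of 18 each. No test was run, because an exact sign-flip test over 3 lists cannot give a p below 0.25.

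Chromosomes of high coverage had long LADs. N50 was highest on chromosome 14, with 2021 kb, 2024 kb and 2437 kb in embryos 1.5, 1.8 and x17 and a mean of 2160 kb ± 239 (SD, n = 3). Chromosome 12 followed with 1842 kb ± 383 and chromosome 1 with 1827 kb ± 179. N50 was lowest on chromosome 19 (994 kb ± 113), chromosome 9 (980 kb ± 6.89) and chromosome 13, where it was 870 kb, 871 kb and 970 kb with a mean of 904 kb ± 57.3. The N50 of chromosome 14 was thus 2.32, 2.32 and 2.51 times that of chromosome 13 in the 3 lists. Chromosome 13 was not lowest throughout, since chromosome 19 had 863 kb in embryo 1.5 and chromosome 11 had 940 kb in embryo x17. Chromosome 12 exceeded chromosome 14 in embryo 1.5, with 2071 kb. Of 171 pairs, 69 differed in N50 beyond the spread, and among neighbours only chromosomes 7 and 17 did. Across the 19 chromosomes the Spearman correlation of mean coverage with N50 was 0.795, with mean LAD length 0.735, with median LAD length 0.312, with the number of LADs per 10 Mb -0.239 and with the median inter-LAD distance -0.293. The relation to N50 was 0.844, 0.558 and 0.879 in the single lists. That to median LAD length was 0.249, 0.474 and 0.00351 in the single lists. Across the settings tried it ran from 0.0965 for bases called in all 3 lists to 0.684 with no length filter. It was 0.153 without embryo 1.8, 0.614 as deposited and 0.625 at a minimum of 500 kb. The relation to N50 was not computed under other settings. The sign of the relation to LAD number turned with a minimum length of 500 kb (0.200) and for bases called in all 3 lists (0.0175), and that to inter-LAD distance with no length filter (0.0105). These values describe 19 points that share their libraries, and coverage is itself the product of LAD number and mean length.

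The count of LADs per 10 Mb gave another order. It was highest on chromosome 13 with 8.70, 10.5 and 10.1 LADs, a mean of 9.78 ± 0.951 (SD, n = 3), then on chromosome 10 (9.53 ± 0.751) and chromosome 18 (9.34 ± 1.57). The count was lowest on chromosome 17 (7.48 ± 1.03), chromosome 14 (7.23 ± 0.807) and chromosome 7 (7.21 ± 0.849). Chromosomes 14 and 7, first and second in coverage, had the lowest mean LAD number per length. In embryo x17, however, chromosome 14 had 7.78 LADs per 10 Mb, more than chromosomes 11 (6.90), 7 (6.90), 17 (6.94) and 6 (7.58). For this measure 64 of 171 pairs and 0 of 18 neighbours differed beyond the spread, and the correlation between lists was 0.489 to 0.809. By means over lists, chromosome 13 combined the highest LAD number per length with the lowest N50 and a coverage of 56.2% ± 3.32. Chromosome 11 differed from it: its 7.57 ± 1.09 LADs per 10 Mb were few and its N50 of 1078 kb ± 120 was short. In absolute numbers chromosome 1 had the most LADs, 158 ± 8.96, and chromosome 19 the fewest, 51.7.

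The share of LAD bases in LADs of 1 Mb or more gave a similar order. It was highest on chromosome 14 with 71.4% ± 3.96, chromosome 7 with 68.7% ± 3.95 and chromosome 17 with 66.5% ± 3.99 (SD, n = 3 lists). It was lowest on chromosome 11 with 51.0% ± 1.12, chromosome 9 with 48.9% ± 0.916 and chromosome 13 with 45.4% ± 2.82. Chromosome 17 is a case where long LADs stood beside a coverage below the autosomal value, 57.2% ± 2.05.

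Median LAD length separated chromosomes poorly. It was highest on chromosomes 19 (412 kb), 7 (409 kb) and 16 (404 kb) and lowest on chromosomes 11 (330 kb), 10 (312 kb) and 13 (311 kb), and 18 of 171 pairs differed beyond the spread. The mean Spearman correlation between lists was 0.175 for median LAD length against 0.811 for N50. Chromosome 19 led the means of median LAD length but was first in no single list. The median inter-LAD distance was longest on chromosome 15 (254 kb ± 29.8), chromosome 11 (252 kb ± 40.4) and chromosome 14 (227 kb ± 48.6), and shortest on chromosome 12 (163 kb ± 27.0), chromosome 6 (162 kb ± 19.2) and chromosome 3 (153 kb ± 21.1). Chromosomes 11 and 14, the lowest and the highest in coverage, were neighbours in this order, and the distance on chromosome 11 was the longer by 24.0, 37.1 and 13.5 kb in embryos 1.5, 1.8 and x17, beyond the spread. Of the other neighbours, chromosome 19 above chromosome 4 and chromosome 5 above chromosome 9 also differed beyond it. Of 171 pairs, 51 differed beyond the spread and no more than a description is given of this order, whose mean correlation between lists was 0.673.

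**Figure D3:**
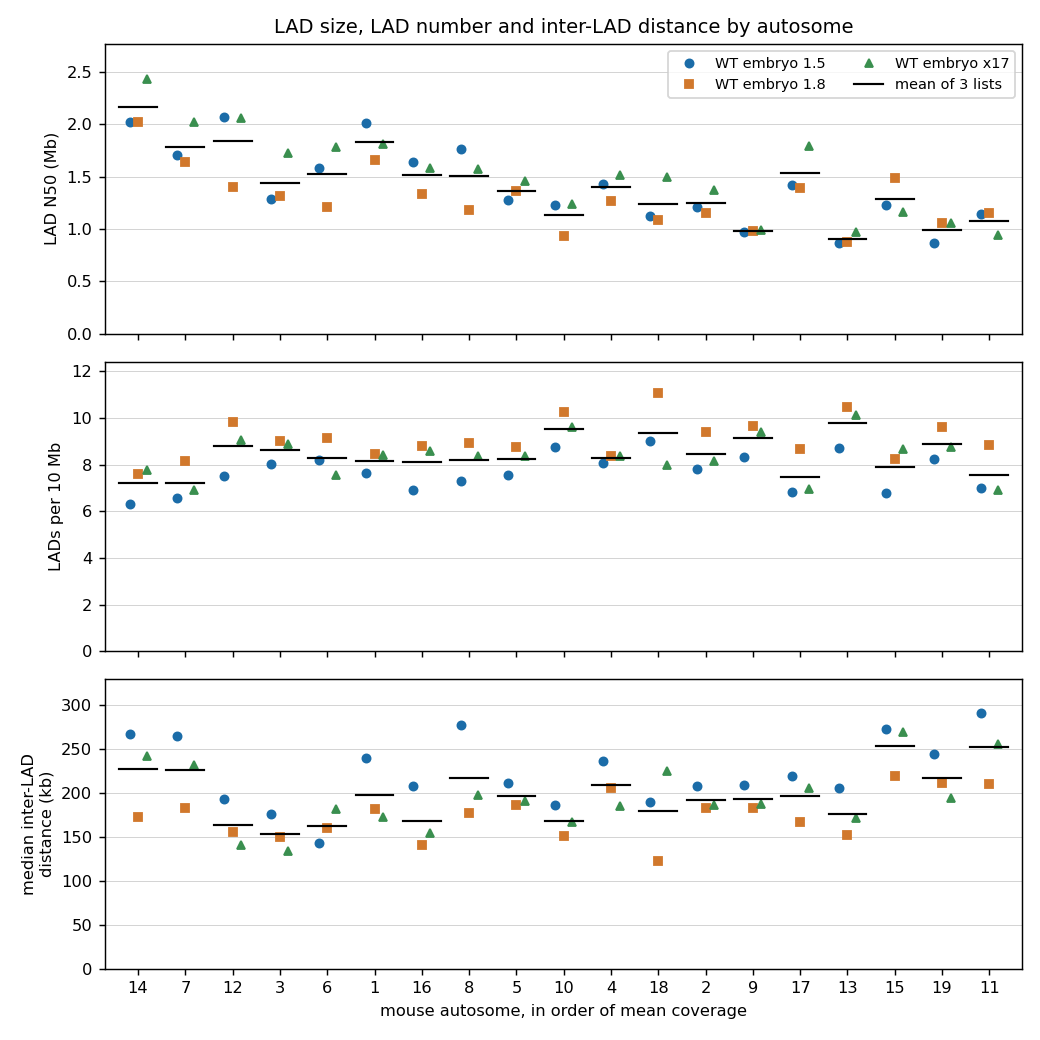
N50 of LAD length in Mb (top), LADs per 10 Mb (middle) and median inter-LAD distance in kb (bottom) for each autosome, ordered by mean coverage on the x axis, with 1 point for each of the 3 WT lists and a black line at their mean. Mean N50 declines from chromosome 14 (2160 kb) towards chromosome 13 (904 kb) and chromosome 11 (1078 kb), while mean LADs per 10 Mb are highest on chromosome 13 (9.78).

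In windows of 1 Mb the autosomes were mostly mixed. Of 2406 windows per list, 30.4% ± 2.01 were at least 90% LAD, 15.2% ± 2.77 were at most 10% LAD and 54.4% ± 1.14 lay between (SD, n = 3 lists). In all 3 lists 599 windows, 24.9%, were at least 90% LAD and 263 windows, 10.9%, were at most 10% LAD. One list calling a window at least 90% LAD while another called it at most 10% was met in 1 window of 2406. Chromosome 14 had the largest share of filled windows, 41.3% ± 3.31, followed by chromosome 7 with 37.6% ± 1.78 and chromosome 3 with 35.9% ± 2.56. Chromosome 11 had the smallest share of filled windows, 19.8% ± 1.96, and the largest share of empty ones, 28.2% ± 4.67, against 10.4% ± 3.31 on chromosome 14. The Pearson correlation of window coverage was 0.476 between windows 1 Mb apart, 0.216 at 2 Mb, 0.114 at 3 Mb and -0.00346 at 5 Mb. It was -0.0289 at 10 Mb and 0.0219 at 20 Mb, so that likeness between windows was seen over a few Mb.

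The longest LADs lay on a small number of chromosomes, and the 5 longest of each list, 15 in all, fell in 8 places on 6 chromosomes. In embryo 1.8 the longest LAD was 11465 kb at chr7:39065907-50530741 (build mm9, as in all positions given here). In embryo x17 it was 10636 kb at chr14:106670856-117306339, and in embryo 1.5 it was 9776 kb at chr15:12866562-22642823. The longest LAD was thus a different one in each list. Embryo 1.8 held the chromosome 15 domain as 10525 kb at chr15:12821051-23345915, and its next were chr1:108681240-114981348 with 6300 kb, chr1:101262068-107526283 with 6264 kb and chr8:98412026-104622354 with 6210 kb. In embryo x17 the next were 10149 kb at chr1:110039628-120188622, 8249 kb at chr7:39061753-47310853, 7226 kb at chr1:100090954-107317304 and 7029 kb at chr3:42402212-49431631. In embryo 1.5 they were 7738 kb at chr7:39022674-46760874, 7198 kb at chr14:106930385-114128670, 6466 kb at chr7:6895554-13361273 and 6155 kb at chr8:98478548-104633955. Of the 8 places, the chromosome 7 domain was the 1 that ranked among the 5 longest in all 3 lists.

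Short breaks decided the length of these domains. The chromosome 7 domain of embryo 1.8 was 2 LADs in embryo 1.5 and 2 in embryo x17, with breaks of 71.2 kb and 33.9 kb, and 99.4% and 99.7% of its bases were LAD there. The chromosome 14 domain of embryo x17 was 3 LADs in embryo 1.5 and 6 in embryo 1.8, where the widest breaks were 104 kb and 184 kb and 96.2% and 94.3% of its bases were called. The chromosome 15 domain of embryo 1.5 was whole in embryo 1.8 and parted by a break of 26.1 kb in embryo x17, just over the joining distance of 25 kb. In each of these the LAD territory was nearly the same in the 3 lists, and the length of a single call was not.

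Chromosomes differed in how long their longest LAD was. Its mean over lists was highest on chromosome 7 (9151 kb ± 2020), chromosome 15 (8737 kb) and chromosome 14 (7926 kb), and lowest on chromosome 13 (3738 kb), chromosome 9 (3721 kb) and chromosome 19 (3235 kb ± 8.43; SD, n = 3). LADs over 5 Mb numbered 17, 16 and 18 in embryos 1.5, 1.8 and x17. Chromosome 14 held 5, 3 and 4 of them, and chromosomes 6, 9, 11, 13, 18 and 19 held 0 in each list.

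Stretches called in all 3 lists gave a measure that does not rest on 1 list. The longest was 7695 kb at chr7:39065907-46760874, followed by 6144 kb at chr8:98478548-104622354 and 6104 kb at chr7:7256948-13361273. The next were 5878 kb at chr15:12866562-18744228 and 5692 kb at chr14:108436745-114128670. Over 5 Mb there were 8 such stretches on 6 chromosomes, and over 2 Mb there were 129. Every autosome had at least one long shared stretch: the shortest of the 19 maxima was 3094 kb, on chromosome 13. The LAD that held the longest shared stretch of chromosome 2 was 5352 kb, 5341 kb and 5318 kb long in the 3 lists, and that of chromosome 19 was 3227 kb, 3234 kb and 3244 kb.

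**Figure D4:**
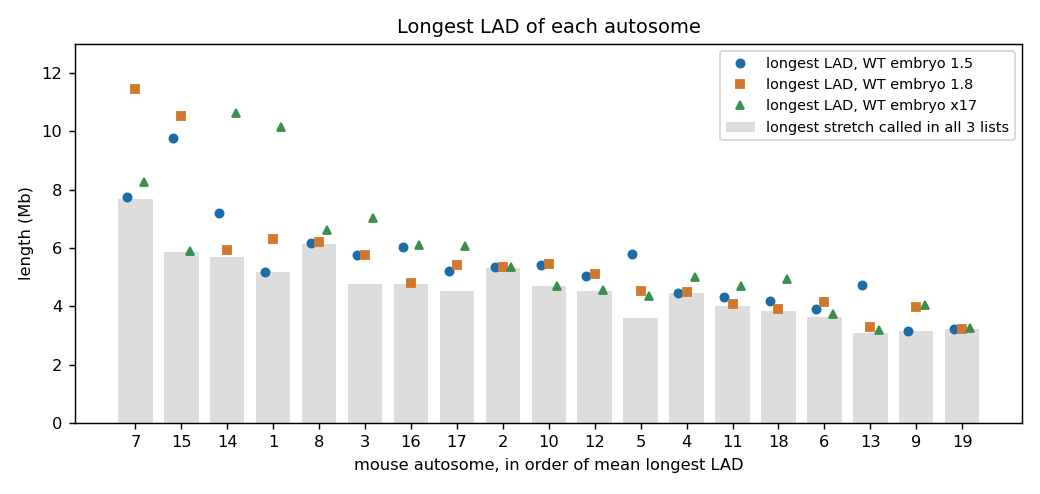
Length in Mb (y axis) of the longest LAD of each autosome (x axis, in order of the mean) in the 3 WT lists as points, with grey bars for the longest stretch called in all 3 lists. Chromosomes 7, 15, 14 and 1 carry points near or above 10 Mb in 1 or more lists, while their shared stretches are 7695, 5878, 5692 and 5189 kb.

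On every autosome most bases called in any list were called in all 3. Of the autosomal span 52.6% was LAD in all 3 lists, 7.01% in 2, 6.75% in 1 and 33.6% in 0. Bases called in all lists were therefore 79.3% of the bases called in any. This share was highest on chromosome 7 with 86.1%, chromosome 17 with 83.1% and chromosome 8 with 81.8%, and lowest on chromosome 18 with 75.4%, chromosome 15 with 74.8% and chromosome 13 with 73.0%. Chromosome 13, which by means over lists had the most LADs for its length and the lowest N50, was thus the one on which the lists shared the least.

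The longest stretches free of LADs in all 3 lists approached the longest shared LAD stretches in length. They were 6642 kb at chr4:131380137-138021897, 6160 kb at chr11:74474475-80634188, 5836 kb at chr9:61733382-67569206, 5409 kb on chromosome 18 and 5026 kb at chr8:121912569-126938070. Within single lists the longest inter-LAD stretch reached 11990 kb in embryo 1.5, 6651 kb in embryo 1.8 and 11978 kb in embryo x17. By chromosome the longest one had a mean of 9935 kb ± 3550 on chromosome 9, 7003 kb ± 2356 on chromosome 2 and 6648 kb ± 2.95 on chromosome 4 (SD, n = 3). The chromosome 4 stretch was nearly identical in the 3 lists, whereas that of chromosome 9 was 11990 kb, 5836 kb and 11978 kb in embryos 1.5, 1.8 and x17. Chromosome 6 (3403 kb ± 287), chromosome 12 (3185 kb ± 673) and chromosome 14 (3090 kb ± 730) had the shortest maxima.

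Coverage was higher on the centromere side of the chromosomes than on the far side, with no steady decline between. Mouse autosomes carry their centromere at one end, the low-numbered one, so that the span of each was divided from that end into 10 equal segments. Over the 19 autosomes the first segment was 63.9%, 70.3% and 67.3% LAD in embryos 1.5, 1.8 and x17, a mean of 67.2% ± 3.21 (SD, n = 3), and the last was 52.6%, 57.1% and 53.3%, a mean of 54.3% ± 2.43. Between them coverage was 58.0% ± 3.71 in segment 4, 61.5% ± 3.21 in segment 5, 56.3% ± 2.55 in segment 7 and 60.7% ± 1.58 in segment 8, and the rises from 4 to 5 and from 7 to 8 were seen in all 3 lists. The first segment exceeded the last in all 3 lists on 13 of 19 chromosomes and was below it in all 3 on 4 (chromosomes 10, 12, 17 and 18). Segments 1 to 5 together exceeded segments 6 to 10 in all lists on 13 chromosomes and were below on 6 (chromosomes 1, 2, 13, 14, 16 and 17). The difference was thus a property of the sum and of most chromosomes, not of all.

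The difference between both ends depended on the width of the end window and on whether unsequenced bases at the start were counted. With spans counted from base 1 of the assembly, whose unsequenced first bases cannot be called as LAD, the first segment fell to 52.1%, below the last. Within 1 Mb of the start coverage was 63.0% ± 1.96, and within 1 Mb of the far end it was higher, 69.2% ± 3.94 (SD, n = 3 lists). From 2 to 5 Mb it was 60.7% ± 4.71 on the centromere side and 52.2% ± 2.39 on the far side. From 5 to 10 Mb it was 70.6% ± 3.63 against 54.8% ± 2.69, and from 10 to 20 Mb 70.9% ± 1.48 against 55.2% ± 2.17. Of the windows measured, the surplus on the centromere side therefore lay between 2 and 20 Mb from the end and was not found in the 2 Mb next to it. A LAD began within 100 kb of the span's start on 15, 16 and 15 of 19 chromosomes, and one ended within 100 kb of its far end on 16, 17 and 16. The span is set by the first and last deposited interval, so that some LADs reach an end by construction.

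**Figure D5:**
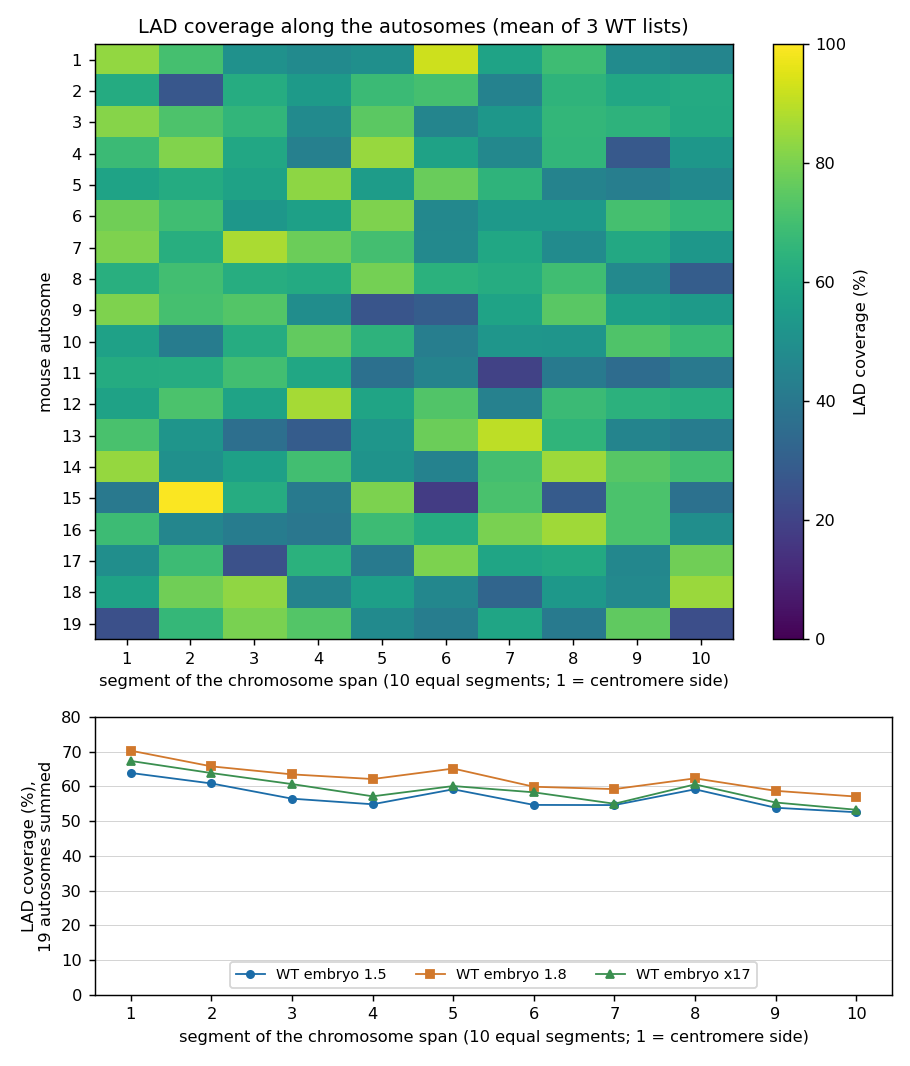
Upper panel, LAD coverage in percent (colour, mean of the 3 WT lists) for each autosome (y axis) and segment of its span from the centromere side (x axis). Lower panel, the same summed over the 19 autosomes, 1 line per list, with a mean of 67.2% in segment 1 and 54.3% in segment 10 and rises between, while single chromosomes range from 17.7% to 99.4%.

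Single chromosomes departed far from this profile. The range over the 10 segments of a chromosome had a median of 46.8 percentage points. The SD over lists of a segment had a median of 3.28 points and reached 11.5 points. These measures are unlike, since a range over 10 values is wider than an SD. Chromosome 15 had the widest range, 81.7 points: segment 2 was 99.4% ± 0.694 LAD and was almost filled by the long domain given above, and segment 6 was 17.7% ± 4.13 (SD, n = 3). Chromosome 6 had the narrowest, 33.8 points. On chromosome 11 segments 1 to 4 had between 59.7% ± 5.24 and 69.6% ± 3.49 and segments 5 to 10 had between 19.7% ± 1.54 and 44.7% ± 2.86. Its low coverage thus lay in segments 5 to 10. Chromosome 19 was low at both ends, 24.5% ± 5.15 and 23.9% ± 4.88, and chromosome 13 was high in segment 1 (71.2% ± 3.50) and again in segment 7 (89.9% ± 2.77), with 29.2% ± 5.88 in segment 4 between them. On chromosome 1 segment 6 was 92.3% ± 1.85 LAD, and on chromosome 18 the last segment, 84.8% ± 1.72, was the highest. Of 190 segments, 20 were at least 80% LAD and 12 were under 30%.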

How the data were processed

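The authors deposited 1 list of LAD intervals per pair of experiment and control libraries, with no level, score or read number, and the labels name build mm9. The methods read for this work describe Dam-lamin B1 against Dam-only DamID, LADetector segmentation and the 25 kb and 100 kb limits for data of this kind, and do not state them for these lists. Replicates were not pooled. Neighbours separated by less than 25 kb were merged and lengths over 100 kb retained, since the deposited lists hold closer and shorter ones. Measures were computed per list with Python 3.11.15 and numpy 2.4.6, and figures drawn with matplotlib 3.10.9. Values are means ± SD over 3 lists, 1 per embryo, with no test. Depth is unknown. Named were the 3 highest and 3 lowest chromosomes per measure, the 5 longest LADs per list, the longest shared stretch per chromosome and the 5 longest LAD-free stretches. Members and measures were chosen with earlier results of these data known; windows of 1 Mb, length classes, end distances and breaks inside the longest LADs were added after seeing the data, as were single chromosomes named along the segments. Interval code was tested on simulated data, and 200 random sets gave 0 mismatches. No annotation of build mm9 was used here, so genes and sequences were not analysed. Signal tracks and treated lists were not used here. Alternatives were the deposited intervals, no length filter, joining under 50 kb, minimum lengths of 200 and 500 kb, bases in at least 2 or in all 3 lists, means for medians, spans from base 1, 5 Mb end windows and leaving out each list.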

Additional observations from a re-analysis of the deposited data

Results flagged for a closer look

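Chromosome X was kept out of the autosomal comparisons, and its coverage was above that of each autosome in each list. It had 73.2%, 81.2% and 81.9% of its span in LADs in embryos 1.5, 1.8 and x17, a mean of 78.8% ± 4.82 (SD, n = 3), against 65.6% on chromosome 14, the highest autosome. Its N50 was 2678 kb ± 110 and its 7.05 ± 0.834 LADs per 10 Mb lay within the spread of the 7.21 ± 0.849 of chromosome 7. Embryo x17, second on the autosomes, was the highest on chromosome X, and embryo 1.5 was the lowest on both. The sex of the embryos, and so the number of X chromosomes behind each value, was not taken into account.

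The lists also hold an interval of 14287 bases on chromosome M, the mitochondrial genome, which does not meet the nuclear lamina. It had the same length in the 3 lists and stands under the length limit. Chromosome Y carried 3, 2 and 1 deposited intervals.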

How the results depend on the processing

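No paired analysis was possible because 1 condition was described, so that no groups could be matched by replicate number, and no result came from a test; chromosomes were compared within lists. Of 177 alternative values for 17 results, 104 moved by less than 1 SD, 70 moved further and 3 changed sign. Part of the 104 was fixed in advance. Leaving out 1 list cannot move a mean over the 3 lists by 1 SD, and the length limits tried cannot change the longest LAD. Of the 11 settings that can change chromosome coverage, chromosome 11 was the lowest in 11 and chromosome 14 the highest in 10. The exception was bases in all 3 lists. Coverage was 62.5% (joining under 50 kb), 56.3% (minimum 200 kb), 47.1% (500 kb) and 52.4% (all 3 lists). The number of LADs was 6903 as deposited, 4489 with no length filter, 1630 (50 kb), 1475 (200 kb) and 784 (500 kb). Median length was 57.1 kb, 87.4 kb, 457 kb, 540 kb and 1004 kb in these settings, 327 kb in all 3 lists, and 714 kb as a mean. N50 was 831 kb as deposited, 1896 kb (50 kb), 1514 kb (200 kb), 1861 kb (500 kb), 1510 kb (at least 2 lists) and 1147 kb (all 3). The median inter-LAD distance was 45.3 kb as deposited, 92.5 kb with no filter, 254 kb (50 kb), 320 kb (200 kb), 849 kb (500 kb) and 491 kb as a mean. The longest LAD was 8414 kb as deposited, 12770 kb (50 kb) and 7695 kb (all 3). The highest chromosome had 55.6% (500 kb) and 59.8% (all 3), the lowest 34.7% and 40.8%, and the SD between chromosomes was 5.25 (500 kb). Rank agreement was 0.983 as deposited, 0.974 with no filter, 0.939 (50 kb), 0.944 (500 kb) and 0.967 to 0.974 leaving out a list. The share in all lists was 77.4%, 77.7%, 77.9% (200 kb) and 74.1% (500 kb). Leaving out a list it was 85.5% to 85.8%, but a share over 2 lists cannot be lower than that over 3. The SD used for this share was taken over pairs of lists. The first segment had 70.7% (50 kb), 63.5% (200 kb), 53.0% (500 kb), 59.2% (all 3), 52.1% (span from base 1) and 60.7% (5 Mb). The last had 56.8% (no filter), 57.2% (50 kb), 50.8% (200 kb), 39.5% (500 kb), 47.3% (all 3) and 58.1% (5 Mb). The middle segments had 56.6% (200 kb), 48.0% (500 kb) and 52.7% (all 3). The correlation of coverage with median LAD length was 0.614 as deposited, 0.684 with no filter, 0.625 (500 kb), 0.0965 (all 3) and 0.153 to 0.370 leaving out a list, lowest without embryo 1.8; with LADs per 10 Mb it was -0.461, -0.581, 0.200 (500 kb) and 0.0175 (all 3), and with the median inter-LAD distance 0.0105 (no filter), -0.425 (50 kb) and -0.165 (at least 2 lists). The cause of these shifts was not tested beyond what each setting removes or joins. Depth could not be weighed, since the lists give none.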
